A study of Mus musculus with 6 samples.

Results

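Mirtrons are miRNAs whose hairpin is a spliced intron of a protein-coding gene, and 9 mature miRNAs from 6 mouse hairpins listed as mirtrons were followed here in fetal liver. The 9 were taken by name from a table of 1626 mature miRNAs: mmu-miR-1224-5p and mmu-miR-1224-3p, mmu-miR-877-5p and mmu-miR-877-3p, mmu-miR-1981-5p and mmu-miR-1981-3p, mmu-miR-1982-3p, mmu-miR-3062-5p and mmu-miR-702-3p (written below without the species prefix). All 9 were listed in the table. The group was chosen by name as mirtrons together with miR-1224, which was selected on its difference between the genotypes in these same libraries, so the differences between genotypes below are descriptions without a test. The table held 3 wild-type (WT) libraries, numbered 1 to 3, and 3 libraries from embryos homozygous for a deletion of the miR-144/451 locus (miR-144/451-/-, KO), numbered 4 to 6. All 6 came from total RNA of fetal liver cells of C57BL/6J mice, and no other allele or treatment is named in the labels. The labels give neither the embryonic day nor whether the replicates came from separate litters, so the spread between libraries may be partly technical.

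Most animal miRNAs are cut from their primary transcript by the nuclear RNase Drosha and then by the cytoplasmic RNase Dicer. A mirtron bypasses Drosha: the spliceosome releases the intron as a lariat, which is debranched, folds into a short hairpin and goes on to Dicer. In a conventional mirtron both hairpin ends are splice sites, so that the 5p arm begins with the GU of the 5′ splice site and the 3p arm ends with the AG of the 3′ splice site. In a tailed mirtron, part of the intron extends past the hairpin and is trimmed. In the embryo the liver makes blood, and its erythroid precursors lie among hepatoblasts, macrophages and endothelial cells.

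The hosts have varied roles. Vwa5b2 encodes a protein with a von Willebrand factor A domain, Abcf1 an ATP-binding protein of translation initiation, and Marc2 a mitochondrial molybdenum enzyme. Oaz1 encodes ornithine decarboxylase antizyme, which restrains polyamine synthesis, Pfas an enzyme of purine synthesis, and Plod3 a collagen lysyl hydroxylase. Host mRNA was not measured in these small RNA libraries, so each miRNA was compared with its host by position and not by level.

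The hairpins were placed against the introns of coding transcripts in GENCODE M21 on GRCm38, with hairpin and mature coordinates from RefSeq (GRCm38.p6). For 4 of the 6 hairpins the annotated hairpin and the intron were the same interval. Mir1224 was the whole of intron 22 of Vwa5b2 (chromosome 16, 20604452 to 20604536, plus strand, 85 bases), the last intron of that transcript. Mir877 was the whole of intron 12 of Abcf1 (chromosome 17, 35960730 to 35960814, minus strand, 85 bases). Mir1981 was intron 5 of Marc2 (chromosome 1, 184822407 to 184822488, minus strand, 82 bases), and Mir1982 was intron 5 of Oaz1 (chromosome 10, 80828797 to 80828870, plus strand, 74 bases). Of the 6 coding transcripts with an intron overlapping Mir1982, 5 had an intron equal to it.

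Mir3062 and Mir702 were not annotated as whole introns. Mir3062 (chromosome 11, 68990574 to 68990678, minus strand, 105 bases) spanned intron 23 of Pfas, of 97 bases, and ran 6 bases into the exon upstream and 2 bases into the exon downstream. Mir702 (chromosome 5, 136991433 to 136991541, plus strand, 109 bases) began 9 bases before intron 13 of Plod3, of 102 bases, and ended 2 bases before that intron did. Within the introns, the 5p arm began at the first intron base in 4 of 6 hairpins, those of miR-1224, miR-877, miR-1981 and miR-702. It began 11 bases further in for miR-1982 and 13 for miR-3062. The 3p arm ended at the last intron base for miR-1224 and miR-1982, 1 base before it for miR-877, 2 bases before it for miR-1981 and miR-702, and 21 bases before it for miR-3062. Neither arm of miR-3062 thus met a splice site, and its positions did not match the conventional mirtron described above. It is kept in the list by its name.

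**Figure D1:**
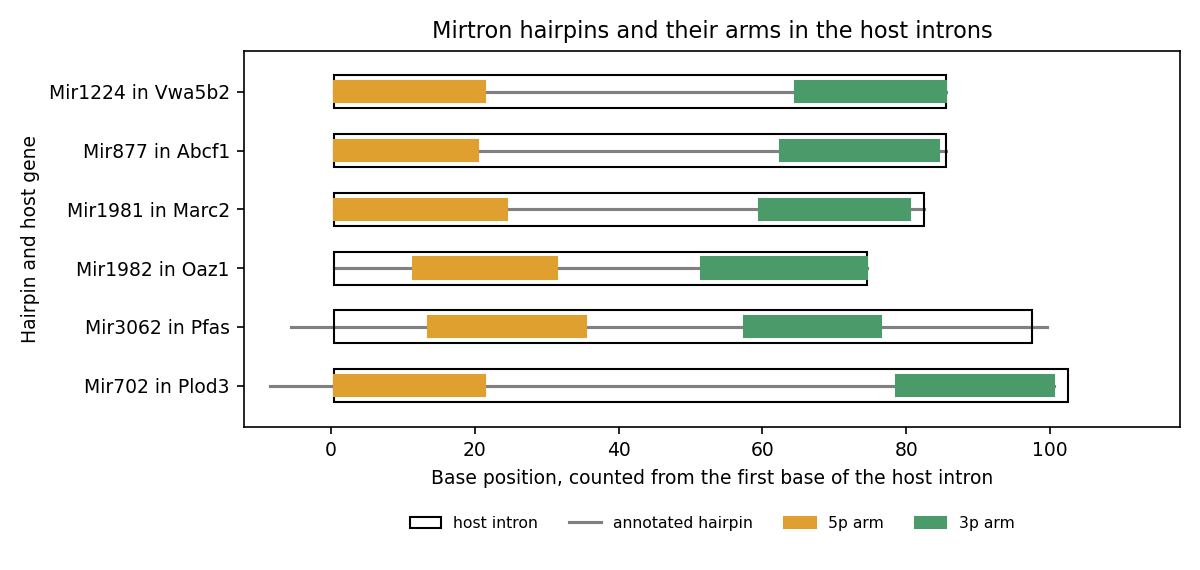
Position of each annotated hairpin (grey line) and of its 5p and 3p arms (coloured boxes) in the host intron (open box), in bases counted from the first base of the intron. The 5p arms of miR-1224, miR-877, miR-1981 and miR-702 start at the first intron base, whereas both arms of miR-3062 lie inside the intron, 13 and 21 bases from its ends.

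Hairpin sequences from RefSeq show the splice sites that bound these miRNAs, written 5′ to 3′ with the first and last 2 bases of the host intron in capitals. Mir1224 and Mir877 are shown as hairpins that equal their intron, and Mir3062 as one that overhangs it.
Mir1224: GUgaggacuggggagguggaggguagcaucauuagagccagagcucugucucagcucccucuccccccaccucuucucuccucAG
Mir877: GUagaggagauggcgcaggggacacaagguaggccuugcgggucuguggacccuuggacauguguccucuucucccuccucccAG
Mir3062: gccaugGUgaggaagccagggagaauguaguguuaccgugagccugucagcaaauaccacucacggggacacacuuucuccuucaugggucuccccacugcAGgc

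The mature sequences of the 9 miRNAs are given from RefSeq with the seed, bases 2 to 8, in capitals, to show which targets they could share through the seed.
miR-1224-5p: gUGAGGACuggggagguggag
miR-1224-3p: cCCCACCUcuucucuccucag
miR-877-5p: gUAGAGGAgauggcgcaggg
miR-877-3p: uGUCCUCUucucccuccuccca
miR-1981-5p: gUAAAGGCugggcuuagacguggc
miR-1981-3p: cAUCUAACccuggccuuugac
miR-1982-3p: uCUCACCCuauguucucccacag
miR-3062-5p: gGAGAAUGuaguguuaccguga
miR-702-3p: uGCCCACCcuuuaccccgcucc

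The 9 miRNAs had 9 distinct seeds, and 0 other miRNAs in the table with a RefSeq sequence carried the seed of any of them. RefSeq sequences were found for 1376 of the 1626 listed miRNAs. Of the 6 hairpins, 4 had a 5p arm that started with GU, against 5.31% of the 697 5p arms in RefSeq, and 2 had a 3p arm that ended with AG, against 27.6% of 709 3p arms. Those ends follow from the choice of intronic hairpins. The base composition of the arms is bound to that choice as well, since 5 of the 6 3p arms ended within 2 bases of the intron end. Purines made up 81.0% of miR-1224-5p and 80% of miR-877-5p, where the median 5p arm had 54.5%, and these arms lay above 97.1% and 96.7% of 5p arms. The 3p arms held mainly C and U, as the tract before a 3′ splice site does: 90.9% in miR-877-3p, 85.7% in miR-1224-3p, 81.8% in miR-702-3p and 73.9% in miR-1982-3p, against a median of 59.1% of 3p arms. miR-1981-3p, at 66.7%, and the 5p arms miR-1981-5p and miR-3062-5p, with 62.5% and 63.6% purines, lay closer to the medians.

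The predicted folding energy of the hairpins (RNAfold) lay on both sides of the median of 1005 RefSeq hairpins, which was -0.406 kcal/mol per base. Mir1224 was the most stable of the 6 per base, at -42.8 kcal/mol in all and -0.504 kcal/mol per base, with 15.3% of the 1005 hairpins lower. Mir1982 was the least stable, at -26.8 kcal/mol and -0.362 kcal/mol per base, with 68.2% lower.

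The 9 sequences were compared with those of the listed miRNAs that had a RefSeq sequence, and not with the rest. The longest run of bases that any of the 9 shared with one of these was 8 to 11 bases, the longest being between miR-1224-5p and miR-7030-5p and between miR-1224-3p and 2 others. For the 8 miRNAs with at least 10 counts in every library, 0 other miRNAs had counts within 5% of theirs in all 6 libraries. miR-1224-5p and its nearest by count differed by up to 67%.

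Library totals ranged from 16243894 to 27089133 miRNA counts. Fetal liver markers were present in all 6 libraries: the hepatocyte miRNA miR-122-5p stood between 29323 and 117798 counts per 1000000 counts after TMM scaling (CPM, the unit of all levels below) in WT and between 37308 and 92264 CPM in KO. The erythroid miRNA miR-486a-5p stood between 43832 and 82223 CPM in WT and between 49708 and 69770 CPM in KO. miR-451a, which is deleted in KO, stood at 152852 to 232232 CPM in WT and 159 to 178 CPM in KO. WT library 1 stood apart in muscle and some neural miRNAs: its 3 muscle miRNAs summed to 400 CPM, against 14.4 and 20.5 CPM in the other WT libraries and 13.3 to 83.5 CPM in KO. In counts scaled to the library total alone, the median log2 fold of KO over WT was 0.34 over the 873 tested miRNAs outside the locus, and -0.01 after TMM scaling. The log2 folds below are TMM-scaled, relative to the typical other miRNA.

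Of the 8 members that passed the filter, 5 averaged under 10 CPM, 2 between 10 and 100 CPM and 1 over 100 CPM. Together the 9 took 0.0181% to 0.0224% of miRNA counts in WT and 0.0321% to 0.0387% in KO. The totals behind these percentages include, in WT, the abundant miRNAs of the deleted locus. After TMM scaling the 9 summed to 205.4 to 251 CPM in WT and 292.3 to 356.3 CPM in KO. In order of their mean level over 6 libraries (CPM are counts of whole miRNA reads, with no length scaling), miR-1981-5p stood first, at 156.9 ± 32.02 CPM (SD, n = 6) and rank 208 of 1626, followed by miR-1981-3p at 60.0 ± 9.03 CPM, miR-877-5p at 27.1 ± 8.26 CPM and miR-877-3p at 9.88 ± 2.07 CPM (SD, n = 6). Each of these stood above the next in 6 of 6 libraries. Below them the order was less fixed. miR-877-3p exceeded miR-3062-5p (7.74 ± 1.49 CPM) in 5 of 6 libraries, and miR-3062-5p exceeded miR-1224-5p in 3 of 3 WT libraries but 1 of 3 KO libraries. miR-702-3p (4.21 ± 1.03 CPM) stood above miR-1224-5p in all 3 WT libraries and below it in all 3 KO libraries. miR-1982-3p followed at 1.86 ± 0.430 CPM, and miR-1224-3p was close to absent, with 4 counts in KO library 4 and 0 in the other 5 libraries.

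**Figure D2:**
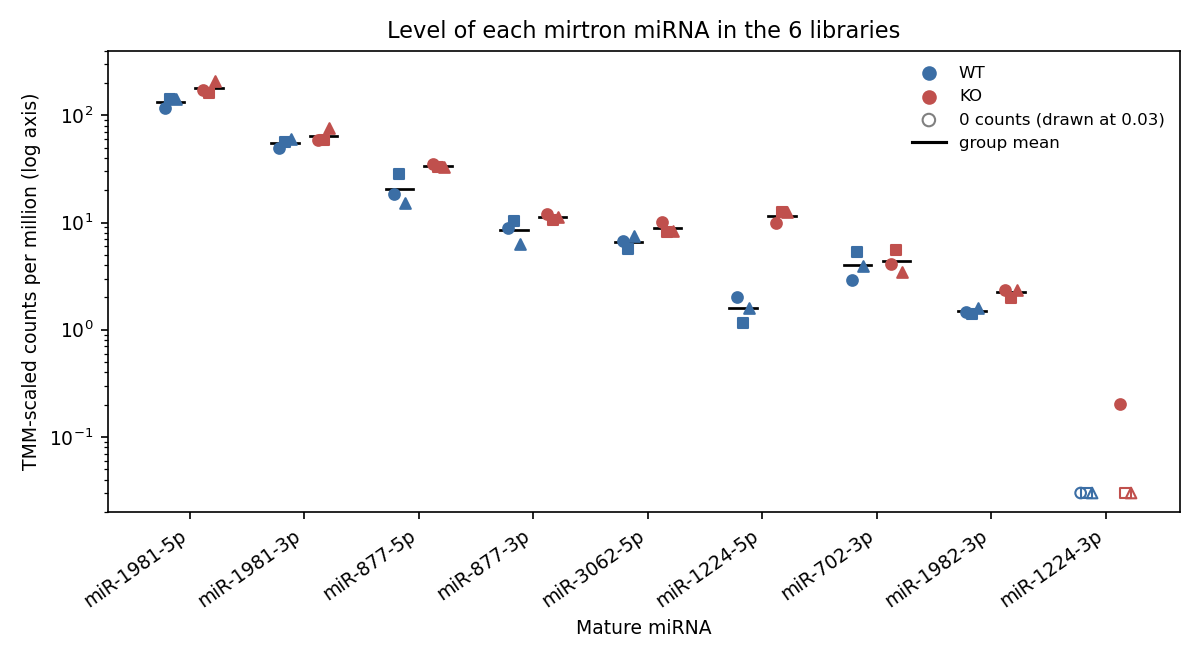
TMM-scaled CPM (log axis) of the 9 mirtron miRNAs in the 3 WT and 3 KO libraries. Filled points are libraries (circle, square and triangle in the order 1 to 3 and 4 to 6), open points are libraries with 0 counts, and black lines are group means; miR-1224-5p stands at 1.16 to 2.02 CPM in WT and 9.88 to 12.5 CPM in KO.

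miR-1224-5p, the arm at the 5′ splice site of the last Vwa5b2 intron, was read 37, 28 and 32 times in WT libraries 1 to 3 and 196, 227 and 324 times in KO libraries 4 to 6. In CPM it stood at 2.02, 1.16 and 1.60 in WT and at 9.88, 12.5 and 12.4 in KO. The lowest KO value was well above the highest WT value, and the 3 KO libraries lay closer to each other, in proportion, than the 3 WT libraries did. The exact Poisson 95% interval of the 28 counts in WT library 2 was 18.6 to 40.5 counts, and that of the 196 counts in KO library 4 was 170 to 225 counts. Intervals of this kind cover counting error only. The WT mean was 1.595 ± 0.431 CPM and the KO mean 11.6 ± 1.498 CPM (SD over 3 libraries in each group). The log2 fold was 2.87 (SE 0.28), that is 7.29-fold. This was the second highest of the 873 log2 folds outside the locus. The highest belonged to miR-6957-5p, a miRNA of the mirtron-type series, which had 0 counts in WT. Without WT library 1 the log2 fold of miR-1224-5p was 3.07.

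Of the 9 members, 8 passed the filter on low counts. At an edgeR Benjamini-Hochberg adjusted p under 0.05, 1 of the 8, miR-1224-5p, was called higher, beside 0.458% of the 873 tested miRNAs. As that call brought it into the list, nothing is read from the count. The call was made in 12 of 13 alternative settings and not without KO library 5. These settings refit the same libraries, so nothing is read from that tally either.

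Markers of other cell types were read beside miR-1224-5p. All 5 neural and neuroendocrine miRNAs of the marker list were detected. Of them 1, miR-128-3p, was higher in every KO library (556 to 604 CPM) than in every WT library (429 to 495 CPM). This was so for 15.9% of the 873 tested miRNAs outside the locus, and nothing is read from counts over marker lists this short. The summed level of the 5 was 4400 to 6146 CPM in WT and 5381 to 7079 CPM in KO. Most of that sum was miR-7a-5p, at 3833 to 5189 CPM in WT and 4596 to 6440 CPM in KO. The neural miR-9-5p stood at 18.6 to 424 CPM in WT, highest in WT library 1, and 16.3 to 93.5 CPM in KO. miR-124-3p, a defining neuronal miRNA, stood at 0.539 to 7.81 CPM in WT and 0.276 to 1.07 CPM in KO, and miR-375-3p, an endocrine miRNA, at 51.8 to 91.7 and 39.4 to 86.9 CPM. None of the 4 hepatocyte miRNAs and none of the 3 muscle miRNAs was higher in every KO library. The 4 hepatocyte miRNAs summed to 33936 to 131604 CPM in WT and 42258 to 102326 CPM in KO. The myeloid miR-223-3p stood at 15316 to 20383 CPM in WT and 8636 to 16013 CPM in KO. The endothelial miR-126a-3p stood at 5878 to 8382 CPM in WT and 5980 to 8821 CPM in KO. The part of these cell types in the levels of miR-1224-5p was not tested. In RNA from a whole tissue, more cells of a type and more RNA per cell cannot be told apart.

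The opposite arm, miR-1224-3p, did not pass the filter and was not tested. Its 4 counts came from KO library 4, where the 5p arm had 196. In the pooled WT libraries the hairpin gave 97 reads of 5p and 0 of 3p, which allows a 3p level of up to 3.09% of the 5p level (3 counts as the limit of a count of 0) and puts 5p at least 32.3-fold higher. In the pooled KO libraries it gave 747 and 4 reads, a 5p share of 99.5% (exact Clopper-Pearson 95% interval 98.6 to 99.9). No difference in arm use between the genotypes was detectable at this depth.

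The miR-877 hairpin of Abcf1 gave both arms in every library. miR-877-5p stood at 18.4, 28.1 and 15.4 CPM in WT and at 34.8, 33.3 and 32.6 CPM in KO, from 307 to 678 and 602 to 851 counts. All KO values were above all WT values, and WT varied far more than KO, with a coefficient of variation of 32.2% against 3.35%. The WT mean was 20.6 ± 6.64 CPM and the KO mean 33.6 ± 1.12 CPM (SD over 3 libraries in each group). The log2 fold was 0.70 (SE 0.26). miR-877-3p stood at 8.85, 10.3 and 6.26 CPM in WT and at 12.1, 10.6 and 11.2 CPM in KO, a log2 fold of 0.42 (SE 0.23). Its groups did not overlap either, although WT library 2, at 10.3 CPM, came close to KO library 5. Single WT libraries moved both arms: without WT library 3 the log2 folds were 0.47 and 0.18, and without WT library 2 they were 0.93 and 0.51.

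The miR-1981 hairpin of Marc2 was the most abundant source of mirtron reads among the 6 hairpins. miR-1981-5p stood at 115.8, 142.4 and 141.2 CPM in WT and at 171.0, 161.4 and 209.5 CPM in KO. The groups did not overlap, and KO library 6 was the highest. The WT and KO means were 133.1 ± 14.98 and 180.6 ± 25.4 CPM (SD over 3 libraries in each group). The log2 fold was 0.44 (SE 0.19). miR-1981-3p stood at 49.1, 56.8 and 60.0 CPM in WT and at 58.7, 58.7 and 76.6 CPM in KO. Here the groups overlapped, since WT library 3 exceeded 2 KO libraries, and the log2 fold was 0.23 (SE 0.20). Without KO library 6 it was 0.08.

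The remaining 3 hairpins contributed 1 member each. miR-3062-5p, from the Pfas intron, stood at 6.78, 5.68 and 7.46 CPM in WT and at 10.03, 8.23 and 8.28 CPM in KO, with no overlap and a log2 fold of 0.41 (SE 0.21). Without KO library 4 its log2 fold was 0.24. miR-1982-3p, from the Oaz1 intron, rested on 27 to 34 counts per WT library and 36 to 61 per KO library. It stood at 1.47, 1.41 and 1.60 CPM in WT and at 2.37, 1.99 and 2.34 CPM in KO, without overlap, a log2 fold of 0.58 (SE 0.23). miR-702-3p, from the Plod3 intron, stood at 2.90, 5.26 and 3.96 CPM in WT and at 4.13, 5.58 and 3.45 CPM in KO. Its groups overlapped, its log2 fold was 0.11 (SE 0.31), and its sign turned without WT library 1 (-0.08) or KO library 5 (-0.11).

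The log2 folds of the 8 members that passed the filter were thus all above 0, from 0.11 for miR-702-3p to 2.87 for miR-1224-5p, with a median of 0.43. Among all 873 tested miRNAs outside the locus, 47.7% were above 0 and the median was -0.01. For 6 of the 8 the KO values lay above all WT values, and this was so for 15.9% of the 873. It was so for 19.9% of the 412 tested miRNAs under 10 CPM, a level at which 5 of the 8 stood. For 0 of the 8 the KO values lay below all WT values, and this was so for 5.61% of the 873. Leaving miR-1224-5p out, the 7 others had a median of 0.42. Without WT library 1, which stood apart in muscle miRNAs, 7 of the 8 log2 folds were above 0, with a median of 0.44, beside a median of -0.05 over the 873. Without that library the log2 folds were 0.62 for miR-877-5p, 0.45 for miR-877-3p, 0.35 for miR-1981-5p, 0.15 for miR-1981-3p, 0.57 for miR-1982-3p and 0.43 for miR-3062-5p. Members are not independent, since 2 hairpins count with both arms, and no test was made over the list.

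**Figure D3:**
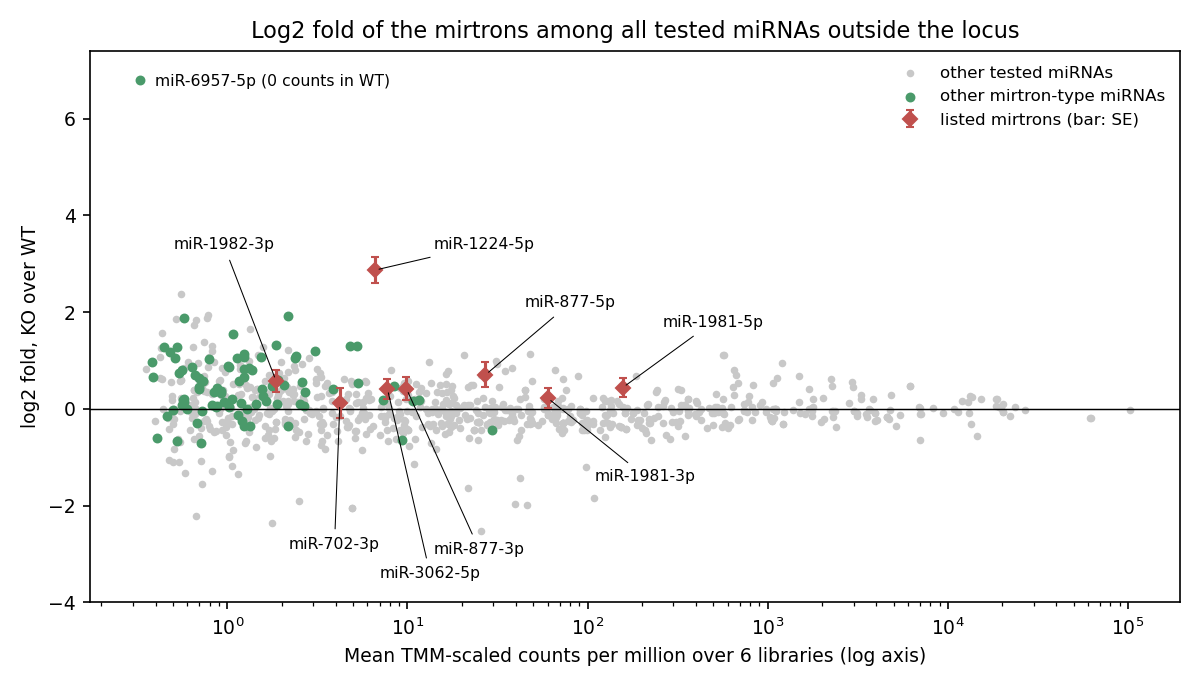
Log2 fold (KO over WT, vertical axis) and mean TMM-scaled CPM (horizontal log axis) for the 873 tested miRNAs outside the miR-144/451 locus; diamonds are the 8 tested mirtron miRNAs with their SE, green points are 85 other miRNAs of the mirtron-type series. The diamonds lie between 0.11 and 0.70 apart from miR-1224-5p at 2.87; the fitted value of miR-6957-5p rests on 0 counts in WT.

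Other miRNAs of the mirtron type gave a comparison. They were taken by their number, and their hairpins were not placed against introns. The list held 371 miRNAs, those from miR-6896 to miR-7094 together with miR-3097, miR-3102, miR-3103 and miR-5132, of which 85 passed the filter. Of these, 71 had a log2 fold above 0 and 14 below, with a median of 0.41. Over the alternative settings 58 to 79 of the same 85 lay above 0, with 70 without WT library 1 and 58 without WT library 3. For 30 the KO values lay above all WT values, 35.3% of the list beside 15.9% of all tested. At an adjusted p under 0.05, edgeR called 0 of the 85. An unadjusted p under 0.05 was found for 21 of them (24.7%), beside 11% of all 873. Without the filter this excess was absent. It was then 25 of 362 (6.91%) by edgeR, beside 7.04% of 1562, and 19 of 344 (5.52%) by DESeq2, beside 6.89% of 1494. At an adjusted p under 0.05, limma-voom called 1 of the 85 (1.18%, beside 0.573% of the 873). Library totals only, with edgeR, gave 8 (9.41%, beside 6.64%). Without the filter, edgeR called 1 of 362 (0.276%, beside 0.256% of 1562) and DESeq2 3 of 344 (0.872%, beside 0.803% of 1494). Of the 3 most abundant, miR-7033-5p lay on the other side of 0, with a WT mean of 33.7 ± 5.22 CPM and a KO mean of 24.9 ± 4.73 CPM (SD over 3 libraries in each group), a log2 fold of -0.44 (SE 0.23). miR-6936-3p and miR-6967-3p had log2 folds of 0.17 (SE 0.26) and 0.16 (SE 0.20). Level went with the direction: 82 of the 85 and 5 of the 8 members had a mean under 10 CPM, and of all 412 tested miRNAs under 10 CPM 58.7% were above 0, against 34.5% of the 229 between 10 and 100 CPM and 40.9% of the 232 over 100 CPM. The filter was applied before TMM scaling, where the median log2 fold of the 873 was 0.34. It could be passed through the libraries of 1 genotype alone, as by miR-6957-5p, which had 0 counts in WT. Low miRNAs could thus enter the list more readily through KO. The part of low level and of this filter in the direction of these lists was not tested.

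miR-320 and miR-484, whose capped precursors bypass Drosha although they are not introns, gave further values. The WT and KO means of miR-320-3p were 541.6 ± 80.9 and 743.3 ± 191 CPM, with overlapping groups and a log2 fold of 0.46 (SE 0.23). Those of miR-484 were 2971 ± 175.5 and 3598 ± 178.6 CPM, without overlap and with a log2 fold of 0.28 (SE 0.12). The third miRNA of that list, miR-320-5p, did not pass the filter.

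Which arm of a hairpin was more abundant does not depend on the genotype contrast and was tested over the 6 libraries. For miR-1224, miR-877 and miR-1981, 5p exceeded 3p in 6 of 6 libraries. The mean log2 ratio of 5p to 3p was 1.42 ± 0.21 for miR-877 and 1.38 ± 0.13 for miR-1981 (SD, n = 6), that is 2.67-fold and 2.59-fold. For miR-1224 it was 6.11 ± 1.55 with 1 count added to each arm, a value set largely by that added count. In the exact two-sided sign-flip permutation test p was 0.03125 for both miR-877 and miR-1981, the smallest that 6 libraries can give, and 0.03125 after Benjamini-Hochberg adjustment over the 3 hairpins. For miR-1224 the 3p arm had 0 counts in 5 of 6 libraries, which fixes the outcome of the test, so no p is given. In 263 hairpins whose arms both averaged 10 counts or more per library, 5p was the more abundant arm in 50.6%.

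The other 3 hairpins had 1 arm among the members, and their arms were compared without a test. miR-3062 gave 974 reads of 5p and 0 of 3p over the 6 libraries, a 3p level of at most 0.308% of the 5p level given 3 counts as the limit. The Plod3 and Oaz1 hairpins went the other way. miR-702 gave 128 reads of 5p and 532 of 3p, a 5p share of 19.4% (exact 95% interval 16.4 to 22.6), and miR-1982 gave 31 and 237, a 5p share of 11.6% (7.996 to 16.02). These intervals pool the reads of 6 libraries and cover counting error only. By library the 5p share ran from 13.01% to 34.6% for miR-702 and from 2.86% to 20.6% for miR-1982. In both, 3p exceeded 5p in 6 of 6 libraries. The arm more often read was thus 5p in 4 hairpins and 3p in 2. Of the 4 hairpins whose 5p arm starts at the splice site, 5p was the more abundant arm in miR-1224, miR-877 and miR-1981, and 3p in miR-702.

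**Figure D4:**
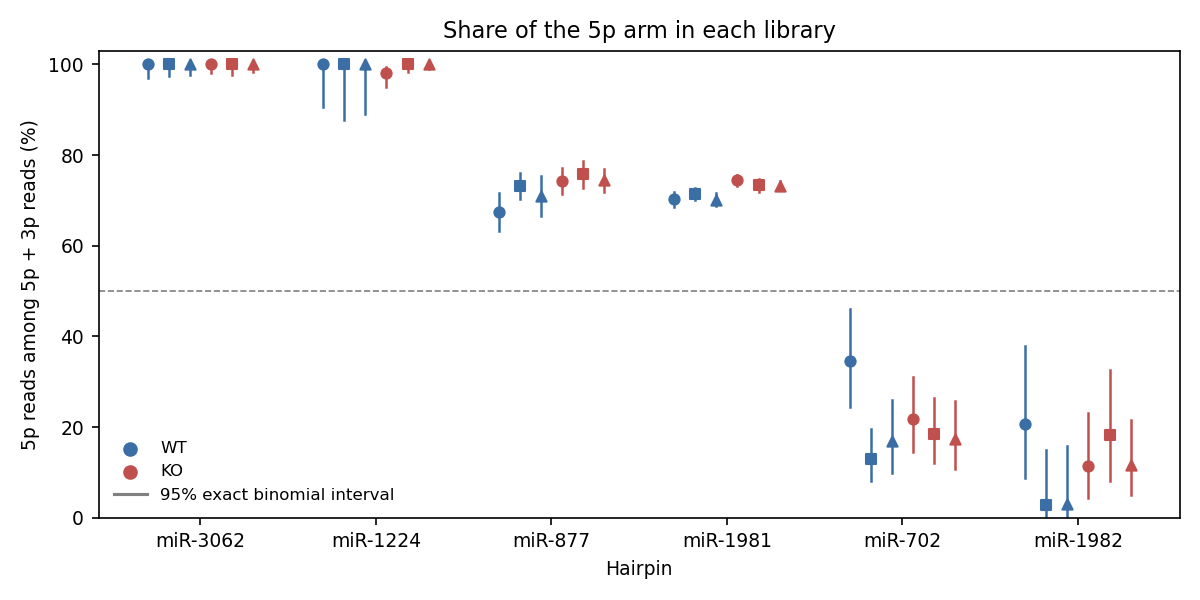
Share of 5p reads among all arm reads (percent) of the 6 hairpins in each WT and KO library, with exact binomial 95% intervals; symbols stand for libraries in the order 1 to 3 and 4 to 6, and the dashed line marks 50%. miR-3062 and miR-1224 lie at or near 100%, miR-877 and miR-1981 between 67.5% and 75.8%, and miR-702 and miR-1982 at 34.6% or lower.

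Of the 6 hairpins, miR-1981, miR-877 and miR-702 had arms that both averaged 10 counts or more per library. The 5p share was higher in KO for miR-1981 and miR-877 and overlapped between the genotypes for miR-702. For miR-1981 it was 70.2%, 71.5% and 70.2% in WT and 74.5%, 73.3% and 73.2% in KO. For miR-877 it was 67.5%, 73.2% and 71.1% in WT and 74.3%, 75.8% and 74.4% in KO. For miR-702 it was 34.6%, 13.01% and 16.8% in WT and 21.9%, 18.5% and 17.4% in KO. The KO libraries thus lay above the WT libraries in 2 of these 3 hairpins, where 4.94% of the 263 hairpins did so. The differences in the log2 ratio of 5p to 3p were small, 0.22 for miR-1981, 0.31 for miR-877 and -0.08 for miR-702, against a median of 0.01 over the 263 hairpins. Those of miR-1981 and miR-877 ranked 61 and 46 among them from the highest. As the ratios come from the same contrast as the choice of members, they were not tested. Without WT library 1 the difference for miR-877 was 0.20.

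Members varied together to differing degrees. Over the 6 libraries, Pearson correlations of log2 CPM were 0.94 between the arms of miR-877 and 0.92 between those of miR-1981. miR-1224-5p correlated with miR-1982-3p at 0.93 and with miR-3062-5p at 0.82, while miR-702-3p correlated with miR-1224-5p at 0.09. These 6 points share genotype and library, and a gap between the genotypes alone gives a high value.

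The non-member miRNAs whose pattern over the 6 libraries was most like that of miR-1224-5p were miR-7052-5p (Pearson r = 0.995), miR-6957-5p (0.988) and miR-1968-5p (0.984), computed on log2(CPM + 0.1) over the tested miRNAs outside the locus. The first 2 belong to the mirtron-type series. miR-7052-5p had 18, 20 and 17 counts in WT and 29, 30 and 42 in KO, a log2 fold of 0.83 (SE 0.26), much smaller than that of miR-1224-5p. miR-6957-5p had 0 counts in each WT library and 11, 13 and 18 in KO. The WT and KO means of miR-1968-5p were 12.9 ± 0.83 and 28.1 ± 0.594 CPM (SD over 3 libraries in each group). For the other members the nearest were miR-3084-5p for miR-877-5p (0.998), miR-7075-3p for miR-877-3p (0.990), miR-2137 for miR-1981-5p (0.963), miR-676-3p for miR-1981-3p (0.969), miR-3057-5p for miR-1982-3p (0.991), miR-3113-5p for miR-3062-5p (0.962) and miR-339-5p for miR-702-3p (0.950).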

How the data were processed

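The authors deposited unnormalised read counts of mature miRNAs and, beside each, a percent. Every deposited percent was the count as a percentage of its library's total, with a largest deviation of 5.0e-09. Adapter trimming with cutadapt is named in the submitters' processing notes. The aligner, miRNA release and genome build are not given in the sources used here. Counts were fitted in R 4.3.3 with edgeR 4.0.16 (quasi-likelihood F-test, TMM scaling, filterByExpr, Benjamini-Hochberg adjustment over 876 tested miRNAs, of which 873 lie outside the miR-144/451 locus); the fit was tested on simulated data. SEs were approximated as |log2 fold| / √F. Alternatives were limma-voom (limma 3.58.1), DESeq2 1.42.0, RLE and upper-quartile scaling, removal of the locus before scaling, library totals alone, no filter, and each library left out. Arm ratios were log2((5p + 1)/(3p + 1)). Sequences and hairpin positions came from RefSeq (GRCm38.p6), introns from GENCODE M21, and folding energies from ViennaRNA 2.7.2 at default settings. Counts of 16243894 to 27089133 per library put the level that a count of 0 allows, taken as 3 counts, at 0.115 to 0.166 CPM. The members, lists and tests were chosen with earlier results of these data known. The miRNAs named are the members and their other arms, the non-members with the most similar pattern (3 were ranked for each member; all 3 are printed for miR-1224-5p and the first for the others), the 3 most abundant of the mirtron-type list, miR-320 and miR-484, and cell type markers, of which those with values beside a result are printed.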

Additional observations from a re-analysis of the deposited data

How the results depend on the processing

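The log2 folds of the 8 tested members kept their sign under all 13 alternatives, except miR-702-3p, which was -0.08 when WT library 1 was left out, -0.11 when KO library 5 was, and 0.31 when WT library 2 was. Their size depended on the scaling: with library totals only, miR-1224-5p stood at 3.22, miR-877-5p at 1.06 and miR-702-3p at 0.47, since the typical miRNA then stood at 0.34. miR-1224-5p ranged from 2.61 to 3.22 over the alternatives. The number of miRNAs called outside the locus was 4 in the edgeR fit, 4 without a filter and 5 with limma-voom. It was 1 with RLE scaling, 1 with upper-quartile scaling, 1 with the locus removed before scaling, 58 (all higher in KO) with library totals only and 12 with DESeq2 (10 higher and 2 lower). With a library left out it was 0 to 1 by edgeR, the 0 being without KO library 5, where 72 had an unadjusted p under 0.05. The cause was not tested. The mean log2 ratio of 5p to 3p was 5.66 to 6.35 for miR-1224, 1.37 to 1.49 for miR-877 and 1.34 to 1.40 for miR-1981 with a library left out. The values for miR-1224 are set largely by the added count, and no p is given for it. For miR-877 and miR-1981 the exact permutation p was then 0.0625, the smallest that 5 libraries can give, so those tests could not pass. The genotype differences in that ratio, when recomputed, were 0.19 to 0.25 for miR-1981 and 0.20 to 0.40 for miR-877. In both hairpins every KO library lay above every WT library, so leaving a library out could not turn the sign. Nothing is read from the sign staying the same. The difference for miR-702 was not recomputed. No paired analysis was possible because the WT libraries are numbered 1 to 3 and the KO libraries 4 to 6 and share no number. Depth limits miR-1224-3p, miR-3062-3p and miR-1982-5p most, each at under 10 counts in every library.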

Other observations

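miR-6957-5p, another miRNA of the mirtron-type series, was read in KO only: 0 counts in all 3 WT libraries and 42 counts over the 3 KO libraries. Taking 3 counts over the WT group as the limit of a count of 0 (0.0481 CPM), its pooled KO level of 0.656 CPM was at least 13.6-fold higher. It was named because its pattern over the libraries was close to that of miR-1224-5p. The main edgeR fit did not call it (adjusted p = 0.0677). Over the other edgeR settings the adjusted p was 0.0265 to 0.367, and it was called with library totals only (0.0265) and without the filter (0.0386). DESeq2 (adjusted p = 0.0026) and limma-voom (adjusted p = 0.00342) also called it. As it was picked for a pattern like that of miR-1224-5p, nothing is read from these calls. miR-7033-5p, the most abundant of that series, was lower in every KO library (19.9 to 29.3 CPM) than in every WT library (30.1 to 39.7 CPM).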
